A study of Mus musculus with 8 samples.

Results

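The collagen genes of mouse tibialis anterior muscle are described here across muscles that lack the transcription factor Prep1 and muscles that keep it. Every non-control probe whose gene name has the form of a collagen chain (Col, a type number, the letter a and a chain number) was taken, which gave 43 genes with 87 probes and 105 spots, of 27398 gene names, 41174 probes and 43379 spots on the array. Of these 43 genes, 33 had at least 1 probe well above background on 4 or more of the 8 arrays and were tested among 16015 genes. No collagen passed the test between genotypes. Of the 33 tested, 25 lay lower in muscle without Prep1, where 62.7% of all genes did, and among the mice without it mouse 4 was the lowest of all 8 for 16 collagens and mouse 2 for 6. Col7a1, the chain of anchoring fibrils, was the 1 collagen whose 2 groups did not overlap, being higher in muscle without Prep1. A share of 1 in 33 is close to the 3.72% of all genes that separated in that direction.

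Collagens are proteins of 3 chains wound into a triple helix, in which each chain repeats glycine and any 2 residues. Types I, III and V form the fibrils of the connective tissue that wraps muscle fibres and fascicles, type IV forms the sheet of the basement membrane around each fibre, and type VI forms beaded microfibrils between that sheet and the fibrils. Type XII and XIV chains bind to fibril surfaces, and type XXII lies at the junction of muscle and tendon. In skeletal muscle most fibrillar and type VI collagen is made by fibroblasts between the fibres, while basement membrane collagen also comes from the fibres and the capillaries.

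RNA was from male C57BL/6 mice aged 8 weeks, 1 Cy3 array per mouse. Prep1deltaSM mice (n = 4) had Prep1, the protein of the gene Pknox1, ablated in skeletal muscle, and Prep1f/+ mice (n = 4), in the design text also named Prep1 flox, carry a floxed allele beside a normal one. The promoter that drives the ablation is not given in the sources used here. Values are log2 signal relative to the 75th percentile of each array, so 0 is that percentile and a difference of 1 is a doubling, and differences are Prep1deltaSM minus Prep1f/+. They describe 1 probe at a time, and levels of different genes are not compared. The summed signals of marker lists are an exception: they add probes of different genes, so bright probes weigh most. P-values come from limma and measure the spread among these mice only.

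Between 23787 and 27123 spots per array were well above background, and 12 of 12 genes of tibialis anterior muscle fibres (among them Acta1, Ckm and Myh4) were detected. Pknox1 had log2 signals of -1.84, -2.08, -2.28 and -1.96 in Prep1deltaSM mice 1 to 4, against -0.09, -0.31, -0.21 and -0.51 in Prep1f/+ mice 1 to 4. The groups did not overlap, and the difference of -1.76 ± 0.13 (SE) had an adjusted p of 0.0072 by limma, or 0.062 once slide was blocked. With normexp background correction and quantile normalization the difference was -0.89. Whether the probe lies in the deleted part was not settled. The 8 arrays sat on 4 slides, each with 1 mouse of each genotype: slide 1 held Prep1deltaSM 1 and Prep1f/+ 2, slide 2 held Prep1deltaSM 2 and Prep1f/+ 3, slide 3 held Prep1deltaSM 4 and Prep1f/+ 1, and slide 4 held Prep1deltaSM 3 and Prep1f/+ 4. Slide and the pair of mice on it cannot be told apart. Prep1f/+ mice 1 and 4 stood apart from the other arrays on the first principal component of all genes, which held 24.4% of the variance.

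Across the collagens, 0 of 33 passed an adjusted p of 0.05, a threshold that 0.00624% of all genes passed (Pknox1 alone). At an unadjusted p under 0.05, 3 collagens were lower (Col8a1, Col8a2 and Col4a6; 10.3% of all genes were) and 1 was higher (Col7a1; 5.54% of all genes). The median difference was -0.24 over the 33 collagens and -0.07 over all genes tested. A difference below 0 was found for 25 of 33 collagens and for 62.7% of all genes. The signs of all genes depended on the scaling. Of the genes with an unadjusted p under 0.05 in either direction, 65.1% were lower as scaled here, against 53.7% after quantile normalization. Under quantile normalization the median of the collagens was -0.21 and that of all genes -0.03. Without Prep1deltaSM mouse 4 the collagen median was -0.10, and without Prep1deltaSM mouse 2 it was -0.12. In bulk tissue, fewer cells that make a collagen and less of its RNA per cell cannot be told apart.

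**Figure D1:**
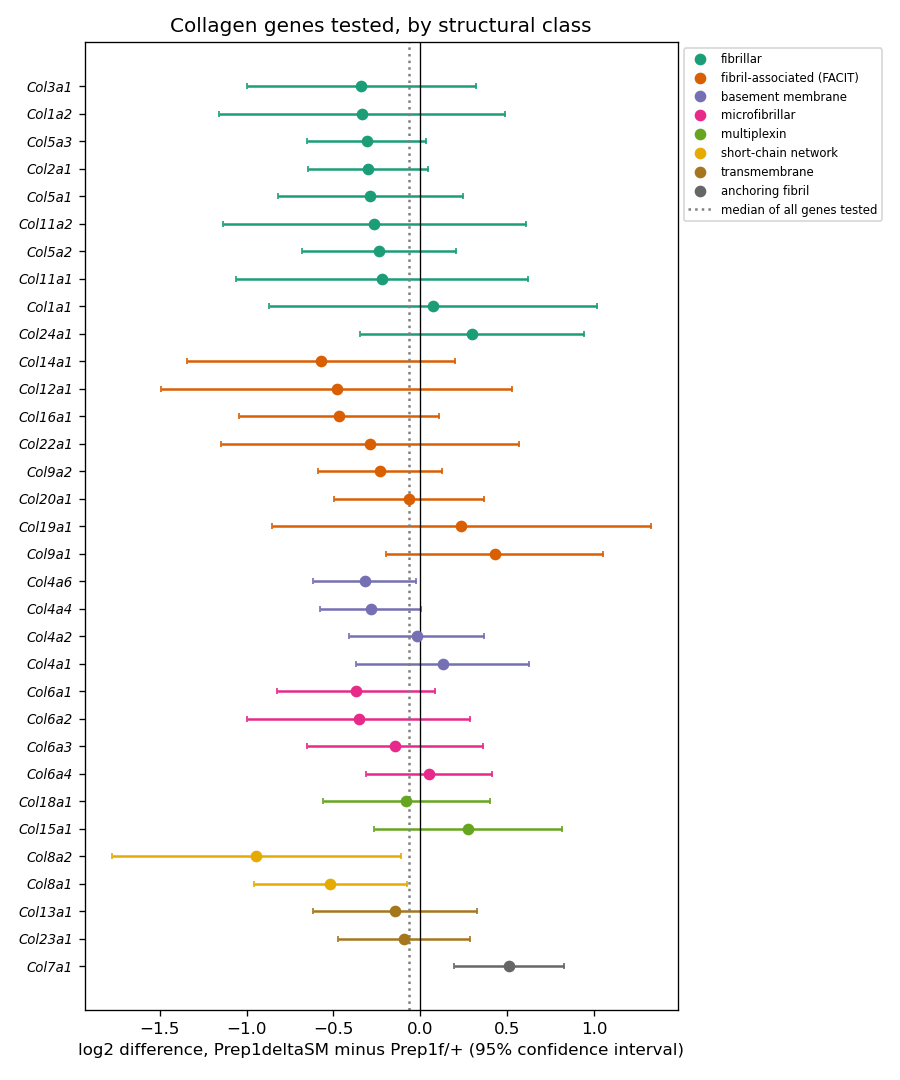
Log2 difference, Prep1deltaSM minus Prep1f/+, of each of the 33 collagens tested, by structural class; points are limma estimates, lines are 95% confidence intervals, and the dotted line is the median of all genes tested (-0.07). Most points lie left of 0, and 4 intervals do not cross it: Col7a1 on the right, and Col8a1, Col8a2 and Col4a6 on the left.

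Type I collagen, the main fibril of tendon and muscle connective tissue, is a trimer of Col1a1 and Col1a2 chains. Col1a1 had log2 signals of 6.34, 5.45, 6.91 and 5.28 in Prep1deltaSM mice 1 to 4, against 5.32, 6.45, 5.51 and 6.40 in Prep1f/+ mice 1 to 4. In each genotype 2 mice were high and 2 were low, the groups overlapped over nearly their whole range, and the difference was 0.07 ± 0.41 (SE). The high and low mice followed the slides: slides 1 and 4 were high and slides 2 and 3 low in both genotypes. The probe for this value is printed in 10 spots, whose SD within an array was 0.03 to 0.08, against an SD of 0.63 and a range of 1.63 over the 8 array means.

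The other 2 Col1a1 probes were read from the array's own annotation of the deposited files (build mm9, plus strand) and are shown because they sit elsewhere in the gene and split the 8 muscles in the same way. The first lies at chr11:94799277-94799336 and the second at chr11:94812052-94812111. Capitals mark the codons TGC and TGT, which encode cysteine, in the frame that starts at base 1. For the first probe this is the 1 forward frame without a stop, while all 3 are open in the second. Cysteines belong to the propeptide ends of the procollagen I chains and not to their helix.
Col1a1 A_52_P658611: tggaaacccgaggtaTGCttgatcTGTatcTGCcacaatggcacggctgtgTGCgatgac
Col1a1 A_51_P377094: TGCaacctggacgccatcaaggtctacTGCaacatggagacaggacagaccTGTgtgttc

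The first of these had log2 signals of 2.97, 1.56, 3.28 and 1.66 in Prep1deltaSM mice, against 1.47, 3.28, 1.38 and 3.11 in Prep1f/+ mice. The second had 4.01, 2.58, 4.39 and 2.61 in Prep1deltaSM mice, against 2.80, 4.04, 2.51 and 4.29 in Prep1f/+ mice. Their differences were 0.06 and -0.01, and slides 1 and 4 were again the high ones. All 3 probes thus split the slides in the same way, with no difference between genotypes larger than the spread.

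Col1a2, the partner chain, had log2 signals of 7.87, 7.11, 8.39 and 7.01 in Prep1deltaSM mice, against 7.38, 8.34, 7.60 and 8.41 in Prep1f/+ mice. The same slides were high and low, and the groups overlapped. Its difference was -0.33 ± 0.36 (SE), with a limma adjusted p of 0.665. Within slides 1 to 4 it was -0.47, -0.48, -0.36 and -0.02, lower on all 4, and the unadjusted p with slide as a block was 0.0296 (adjusted p = 0.276). A weaker second probe gave a difference of 0.10. Leaving out 1 mouse moved the difference to between -0.60 (without Prep1deltaSM mouse 3) and -0.14 (without Prep1deltaSM mouse 4).

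Col3a1, the chain of type III fibrils, which mix with type I in the looser layers around fibres, had 5.66, 5.17, 6.19 and 4.79 in Prep1deltaSM mice, against 5.47, 5.77, 5.82 and 6.12 in Prep1f/+ mice. The highest and the lowest of the 8 muscles were both Prep1deltaSM. The difference was -0.34 ± 0.29 (SE; adjusted p = 0.584), and its 3 probes gave differences of -0.58 to 0.05. It was -0.59 without Prep1deltaSM mouse 3 and -0.12 without Prep1deltaSM mouse 4.

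Type V chains start fibrils and limit their width. Col5a1 had log2 signals of 1.55, 1.30, 2.01 and 1.02 in Prep1deltaSM mice, against 1.28, 1.86, 1.94 and 1.93 in Prep1f/+ mice. Col5a2 had 0.67, 0.26, 0.93 and 0.07 in Prep1deltaSM mice, against 0.56, 0.65, 0.68 and 0.98 in Prep1f/+ mice. Col5a3 had 2.89, 2.61, 3.26 and 2.63 in Prep1deltaSM mice, against 3.03, 3.17, 3.21 and 3.21 in Prep1f/+ mice. For all 3 chains Prep1deltaSM mice 2 and 4 held the lowest values of their group and Prep1deltaSM mouse 3 the highest. Differences were -0.29 ± 0.23, -0.24 ± 0.19 and -0.31 ± 0.15 (SE), with adjusted p of 0.563, 0.565 and 0.353 by limma. Without Prep1deltaSM mouse 4, Col5a1 differed by -0.14 and Col5a2 by -0.10, and without Prep1deltaSM mouse 3 by -0.47 and -0.39.

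For 3 fibrillar genes, a probe deposited with its sequence lies in the triple helix itself. They are shown because the repeat that makes a collagen can be read in them, and because the Col5a3 probe disagrees with that gene's brighter one. Capitals mark glycine codons (GG and any base), which recur every 9 bases, the length of 3 codons. In mm9 the Col5a1 probe spans chr2:27842243-27844666 on the plus strand, the Col5a3 probe chr9:20590066-20590795 on the minus strand and the Col11a2 probe chr17:34189287-34189453 on the plus strand. Each span is longer than its probe of 60 bases.
Col5a1 A_52_P237371: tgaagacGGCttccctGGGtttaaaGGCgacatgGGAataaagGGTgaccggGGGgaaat
Col5a3 A_52_P503796: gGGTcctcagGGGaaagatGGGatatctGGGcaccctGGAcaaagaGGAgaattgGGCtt
Col11a2 A_52_P563285: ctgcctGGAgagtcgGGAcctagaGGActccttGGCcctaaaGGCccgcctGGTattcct

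The helix probes gave differences of -0.02 for Col5a1, 0.25 for Col5a3 and -0.13 for Col11a2. The Col5a3 helix probe had log2 signals of -2.18, -2.67, -1.67 and -2.61 in Prep1deltaSM mice, against -2.48, -2.74, -2.65 and -2.27 in Prep1f/+ mice. Its sign was opposite to the -0.31 of the brighter probe, and on neither probe did the groups separate.

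Among the remaining fibrillar chains, Col11a2 and Col11a1, the type XI chains best known from cartilage, and Col2a1, the main cartilage collagen, were detected. Col11a2 had 0.17, -0.57, 0.82 and -0.53 in Prep1deltaSM mice, against -0.14, 0.67, -0.39 and 0.82 in Prep1f/+ mice, which is the slide order of Col1a1. Its difference was -0.27 ± 0.38 (SE), and it was lower on all 4 slides, by as little as -0.0024 on slide 4. Leaving out 1 mouse gave -0.55 (without Prep1deltaSM mouse 3) to -0.07 (without Prep1f/+ mouse 4). Col11a1 differed by -0.22 ± 0.37 (its 2 probes by -0.22 and 0.18), Col2a1 by -0.30 ± 0.15 (2 probes, -0.40 and -0.30) and Col24a1 by 0.30 ± 0.28 (2 probes, 0.29 and 0.30). Col2a1 was -0.19 without Prep1deltaSM mouse 4, and Col24a1 -0.0070 without Prep1f/+ mouse 1. Of 9 cartilage and bone marker genes on the array 5, Matn1, Matn3, Hapln1, Sp7 and Ibsp, were not well above background on any array. The others were detected on at least 1 array, and 3 were tested. Of these, 2 were lower, with a median of -0.15, and 1 was lower at an unadjusted p under 0.05 by limma (10.3% of all genes). Over the 10 fibrillar genes tested of 11, 8 were lower, the median was -0.28 and 0 passed an unadjusted p of 0.05. Col27a1, the 11th, was well above background on 3 arrays only.

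**Figure D2:**
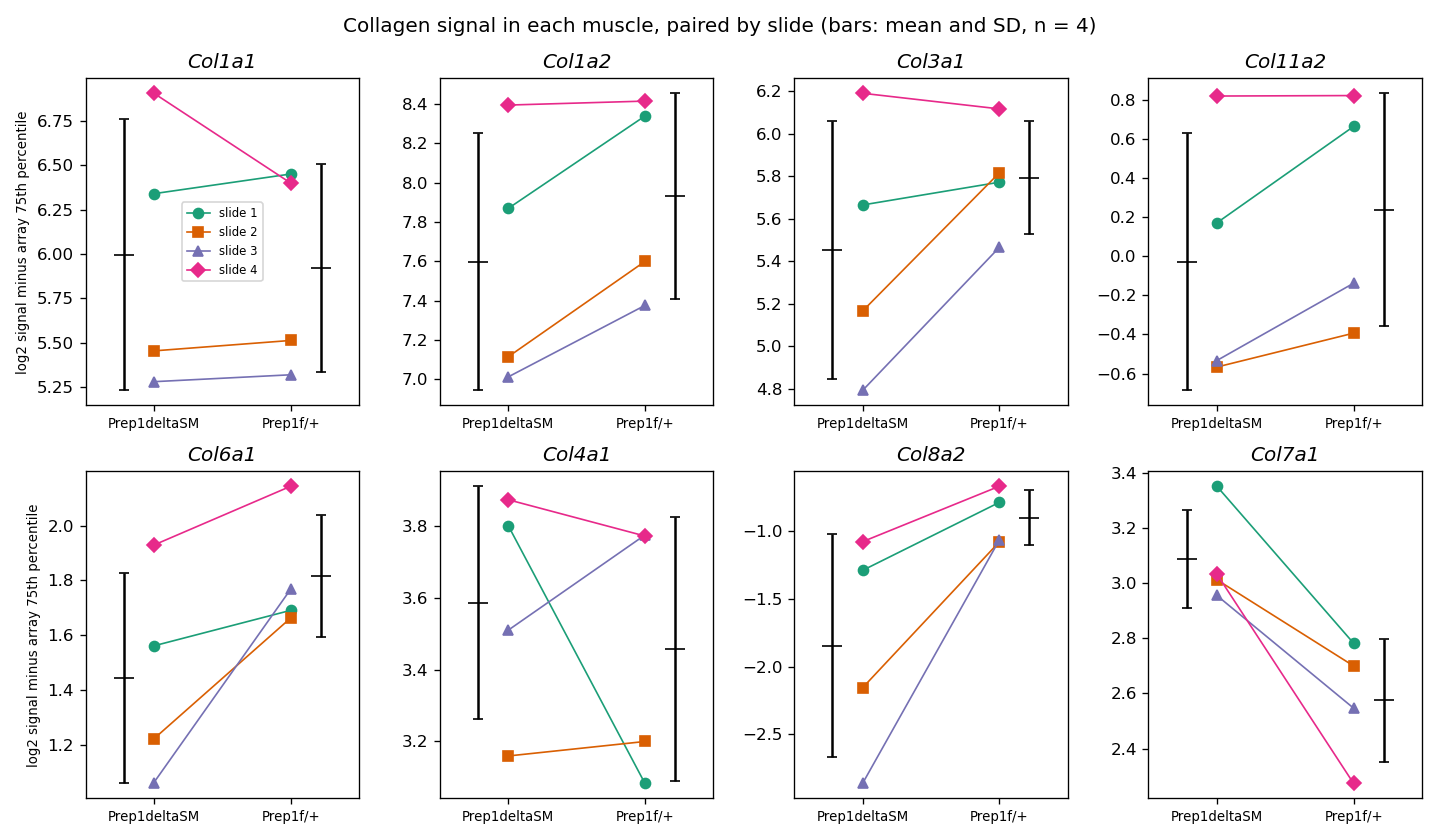
Log2 signal relative to the 75th percentile of the array, for 8 collagens in each of the 8 muscles, Prep1deltaSM left and Prep1f/+ right; lines join the 2 mice of a slide, and bars are the mean and SD (n = 4). Col1a1, Col1a2 and Col11a2 keep slides 1 and 4 above slides 2 and 3 in both genotypes, Col8a2 has its lowest values in Prep1deltaSM on slides 2 and 3, and Col7a1 is higher in Prep1deltaSM on every slide.

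The slide order was noticed in the per-array values and then measured over all genes. Of the sum of squares of Col1a1 over the 8 arrays, 95.1% lay between slides and 0.395% between genotypes. The share between slides was 92.6% for Col6a3, 91.4% for Col11a2, 87.5% for Col11a1 and 87.4% for Col1a2. These 5 of 33 collagens exceeded 85%, as did 3.72% of all genes. The median share between slides was 51.2% for the collagens and 38.6% for all genes. An F test of slide beside genotype gave an unadjusted p under 0.05 for 9 of 33 collagens, 6 of them fibrillar, and for 7.95% of all genes. After adjustment it called 0 collagens and 0% of all genes, with adjusted p of 0.257 for Col11a2 and 0.278 for Col1a1 and Col1a2 by limma. What the mice or arrays of a slide share beyond the slide is not given in the sources used here, and the source of the slide order was not tested.

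**Figure D3:**
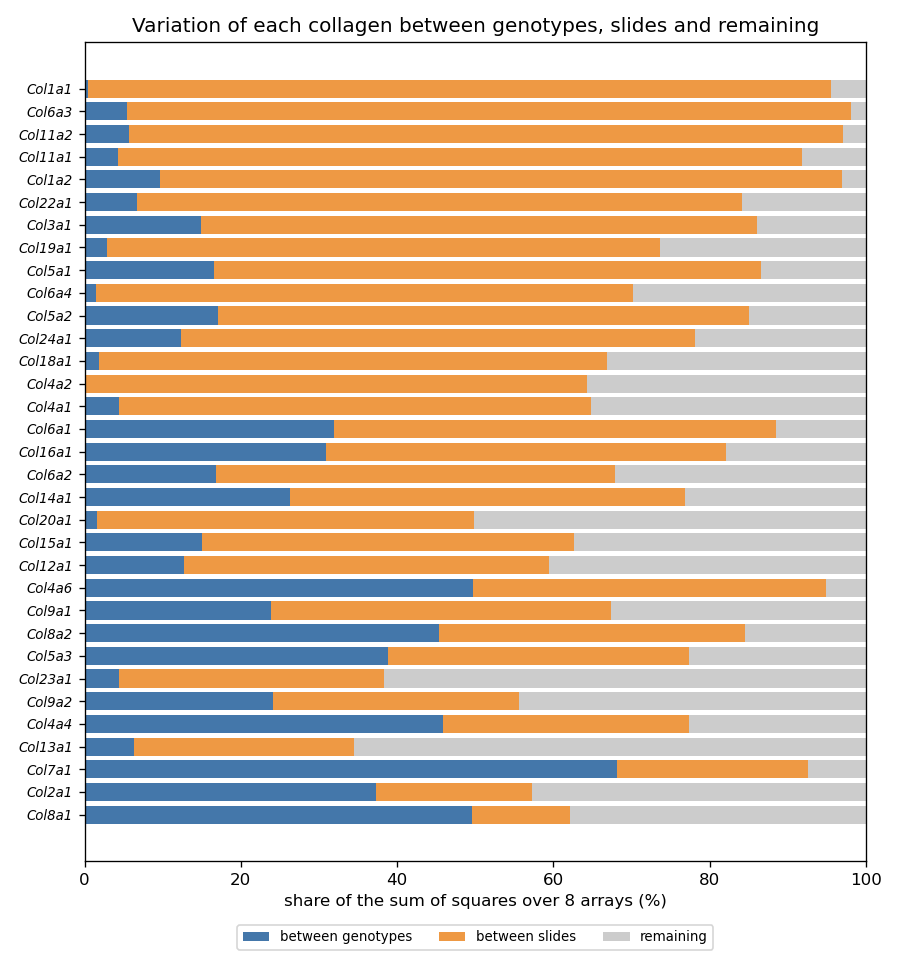
Share of each collagen's sum of squares over the 8 arrays that lies between genotypes, between slides and in the remainder, in percent, ordered by the slide share. Col1a1 is at the top with 95.1% between slides, and Col7a1, near the bottom, has the largest genotype share, 68.1%.

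Basement membrane collagen in most tissues is a trimer of Col4a1 and Col4a2. Col4a1 had log2 signals of 3.80, 3.16, 3.87 and 3.51 in Prep1deltaSM mice, against 3.78, 3.08, 3.20 and 3.77 in Prep1f/+ mice. Col4a2 had 2.99, 2.39, 2.90 and 2.80 in Prep1deltaSM mice, against 3.06, 2.56, 2.58 and 2.96 in Prep1f/+ mice. The groups covered the same range for both genes, Prep1deltaSM mouse 4 was not low, and the slide order of Col1a1 was not seen. Differences were 0.13 ± 0.22 for Col4a1 (2 probes, -0.05 and 0.13) and -0.02 ± 0.17 for Col4a2 (2 probes, -0.02 and 0.29). Their 95% confidence intervals were -0.37 to 0.63 and -0.41 to 0.37. Leaving out 1 mouse gave 0.0036 (without Prep1f/+ mouse 2) to 0.27 (without Prep1deltaSM mouse 2) for Col4a1.

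Of the chains found in more restricted basement membranes, Col4a6 had -2.03, -1.96, -1.92 and -1.57 in Prep1deltaSM mice, against -1.32, -1.53, -1.69 and -1.66 in Prep1f/+ mice. Prep1deltaSM mice 1 to 3 lay below every Prep1f/+ mouse, and mouse 4 lay within their range. The difference was -0.32 ± 0.13 (SE; unadjusted p = 0.0373, adjusted p = 0.285 by limma), and it was lower on all 4 slides. These values rest on the 1 kept probe of Col4a6. Its other probes were well above background on 0 arrays and differed by -0.01 and -0.15, at background. Col4a4 had 0.22, 0.12, 0.21 and 0.27 in Prep1deltaSM mice, against 0.80, 0.20, 0.48 and 0.50 in Prep1f/+ mice. It differed by -0.29 ± 0.13 (SE; adjusted p = 0.318) with overlapping groups, while its second probe differed by 0.01 and the first by -0.18 without Prep1f/+ mouse 1. Col4a5, which pairs with Col4a6 in smooth muscle basement membrane, was well above background on 1 array (Prep1deltaSM), with signals of -5.69, -4.72, -5.92 and -4.84 in Prep1deltaSM mice, against -6.37, -5.19, -4.80 and -4.82 in Prep1f/+ mice, and it was not tested. Over the 4 type IV chains tested of 6, the median was -0.15.

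Type VI collagen is a heterotrimer of Col6a1, Col6a2 and a further chain, mostly Col6a3 in muscle, and mutations in these genes cause Ullrich and Bethlem muscle disease in humans. Col6a1 had log2 signals of 1.56, 1.22, 1.93 and 1.06 in Prep1deltaSM mice, against 1.77, 1.69, 1.66 and 2.14 in Prep1f/+ mice. Col6a2 had 0.74, 0.42, 1.05 and 0.09 in Prep1deltaSM mice, against 1.24, 0.73, 0.33 and 1.42 in Prep1f/+ mice. Col6a3 had 3.17, 2.99, 3.68 and 2.76 in Prep1deltaSM mice, against 3.01, 3.22, 3.22 and 3.75 in Prep1f/+ mice. On these brightest probes Prep1deltaSM mouse 4 was the lowest of all 8 muscles for each of the 3 chains, Prep1f/+ mouse 4 was the highest, and the groups overlapped. On the second kept probes of Col6a2 and Col6a3 the lowest muscle was Prep1deltaSM mouse 2 (-3.50 and -1.61).

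The differences were -0.37 ± 0.20 for Col6a1, -0.36 ± 0.28 for Col6a2 (2 probes, -0.40 and -0.36) and -0.15 ± 0.22 for Col6a3 (2 probes, -0.33 and -0.15), each ± SE. Col6a1 was lower on all 4 slides (-0.13, -0.44, -0.70 and -0.21). Its unadjusted p by limma was 0.0969 without a block (adjusted p = 0.393) and 0.0275 with slide as a block (adjusted p = 0.271). Col6a3 was also lower on all 4 slides, and Col6a2 on 2 of them. Without Prep1deltaSM mouse 4, the mouse lowest for all 3 on the brightest probes, the differences were -0.24 for Col6a1, -0.19 for Col6a2 and -0.02 for Col6a3. Col6a4 differed by 0.05 ± 0.16, while Col6a5 and Col6a6 were well above background on 0 arrays. The median over the 4 tested was -0.25.

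Fibril-associated collagens (FACITs) sit on the surface of fibrils without forming them. Col14a1 had -0.81, -1.51, -0.56 and -2.07 in Prep1deltaSM mice, against -1.17, -0.57, -0.25 and -0.68 in Prep1f/+ mice. Col12a1 had -1.89, -3.07, -1.97 and -3.92 in Prep1deltaSM mice, against -1.99, -2.19, -2.75 and -2.00 in Prep1f/+ mice. Col22a1 had 4.76, 3.13, 4.10 and 3.12 in Prep1deltaSM mice, against 3.99, 4.50, 3.65 and 4.10 in Prep1f/+ mice. The 3 genes shared a wide spread within Prep1deltaSM, in which mice 2 and 4 were the 2 lowest muscles of all 8.

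Col14a1 differed by -0.57 ± 0.34 (SE; adjusted p = 0.431), Col12a1 by -0.48 ± 0.44 and Col22a1 by -0.29 ± 0.38. Without Prep1deltaSM mouse 4 they differed by -0.30 for Col14a1, -0.08 for Col12a1 and -0.07 for Col22a1. Without Prep1deltaSM mouse 1 they differed by -0.76 for Col12a1 and -0.62 for Col22a1. A second Col12a1 probe differed by 0.40, and it was higher on all 4 slides, against -0.48 for the brighter one. The second Col22a1 probe differed by -0.37. Col16a1 differed by -0.47 ± 0.25 and was lower on all 4 slides, its 2 probes giving -0.47 and -0.03, and -0.30 without Prep1deltaSM mouse 4. The remaining FACITs were Col9a1 (0.43 ± 0.27, higher on all 4 slides), Col9a2 (-0.23 ± 0.16), Col19a1 (0.24 ± 0.48) and Col20a1 (-0.06 ± 0.19). The median over the 8 tested of 9 was -0.26.

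The multiplexins, collagens of the outer basement membrane zone whose C-terminal fragments include endostatin, were Col15a1 and Col18a1. Col15a1 had 1.96, 1.31, 1.78 and 1.06 in Prep1deltaSM mice, against 1.22, 0.97, 1.09 and 1.74 in Prep1f/+ mice. Col18a1 had 2.21, 1.32, 1.95 and 1.46 in Prep1deltaSM mice, against 1.81, 1.72, 1.61 and 2.13 in Prep1f/+ mice. Both groups overlapped, and the differences were 0.28 ± 0.24 for Col15a1 (2 probes, 0.09 and 0.28) and -0.08 ± 0.21 for Col18a1 (2 probes, -0.08 and -0.06). Leaving out 1 mouse gave 0.13 (without Prep1deltaSM mouse 1) to 0.44 (without Prep1f/+ mouse 4) for Col15a1. The transmembrane collagens Col13a1, which occurs at the neuromuscular junction, and Col23a1 differed by -0.15 ± 0.21 and -0.10 ± 0.17, and the 2 Col23a1 probes by -0.10 and 0.44.

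Type VIII collagen, a short-chain collagen that forms networks and is known from vessel walls, held the most negative difference of the 33 collagens tested, that of Col8a2. Col8a2 had log2 signals of -1.29, -2.16, -1.08 and -2.86 in Prep1deltaSM mice, against -1.07, -0.79, -1.08 and -0.67 in Prep1f/+ mice. Col8a1 had 2.47, 1.75, 2.27 and 1.72 in Prep1deltaSM mice, against 2.76, 2.59, 2.63 and 2.28 in Prep1f/+ mice. For each chain 3 of the 4 Prep1deltaSM mice lay below every Prep1f/+ muscle, mice 1, 2 and 4 for Col8a2 and mice 2, 3 and 4 for Col8a1. Col8a2 differed by -0.95 ± 0.36 (SE; unadjusted p = 0.0305, adjusted p = 0.269) and Col8a1 by -0.52 ± 0.19 (unadjusted p = 0.0262, adjusted p = 0.258), by limma. Both were lower on all 4 slides, Col8a1 by as little as -0.019 on slide 4. The second Col8a1 probe was higher on slides 1 and 4, by 0.0099 and 0.34. The Col8a2 difference was -0.61 without Prep1deltaSM mouse 4 and -0.39 with normexp and quantile normalization, and the 2 Col8a1 probes gave -0.52 and -0.44. Col10a1, of hypertrophic cartilage, was well above background on 0 arrays.

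Col7a1 forms the anchoring fibrils that fasten basement membrane to the matrix beneath it, and is best known from skin. Its 1 probe, at chr9:108886855-108886914 (mm9, plus strand), had log2 signals of 3.35, 3.01, 3.03 and 2.96 in Prep1deltaSM mice, against 2.55, 2.78, 2.70 and 2.27 in Prep1f/+ mice. Every Prep1deltaSM value lay above every Prep1f/+ value. The means were 3.09 ± 0.18 in Prep1deltaSM and 2.58 ± 0.22 in Prep1f/+ (SD, n = 4 each), a 1.43-fold higher signal in Prep1deltaSM. The difference was 0.51 ± 0.14 (SE), with a 95% confidence interval of 0.20 to 0.83, an unadjusted p of 0.00546 and an adjusted p of 0.182 by limma. On slides 1 to 4 it was 0.57, 0.31, 0.41 and 0.76, and blocking on slide gave an adjusted p of 0.214.

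Groups that did not overlap were found for 1 of 33 collagens higher in Prep1deltaSM (3.72% of all genes) and for 0 lower (6.74% of all genes). On all 4 slides, 8 collagens were lower (Col1a2, Col11a2, Col4a6, Col6a1, Col6a3, Col16a1, Col8a1 and Col8a2), as were 18.2% of all genes. In the other direction 2 were higher on all 4 (Col7a1 and Col9a1), as were 8.59% of all genes. With slide as a block, an unadjusted p under 0.05 was reached by 6 lower collagens (10.0% of all genes) and by 1 higher one, Col7a1 (5.71% of all genes). None of these passed adjustment.

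The promoters of 27 collagens matched the RefSeq table (GRCm38.p6), with 30 start sites, and were searched on both strands for TGACAG, the hexamer that Prep1 and related TALE factors bind. In the 300 bases around a start site (250 before and 50 after) it was found in 19.2% of 32851 promoters and in 6 of the 30 collagen promoters, those of Col3a1, Col4a6, Col7a1, Col9a2, Col15a1 and Col19a1. The 250 bases before the start of Col4a6 and Col7a1 are printed because both genes hold a match and are among the collagens with the smallest p. In GRCm38.p6 the Col4a6 window is chrX:141474077-141474326 on the minus strand and the Col7a1 window chr9:108953336-108953585 on the plus strand. Capitals mark the hexamer, which starts 36 bases before the start site in Col4a6 and, read on the opposite strand (CTGTCA), 179 bases before it in Col7a1. A match is a run of letters, and binding was not measured.
Col4a6: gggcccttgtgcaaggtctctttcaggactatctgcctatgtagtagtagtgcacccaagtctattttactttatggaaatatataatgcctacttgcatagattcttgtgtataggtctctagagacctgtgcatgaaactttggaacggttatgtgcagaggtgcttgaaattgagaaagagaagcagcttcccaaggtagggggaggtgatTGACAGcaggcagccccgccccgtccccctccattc
Col7a1: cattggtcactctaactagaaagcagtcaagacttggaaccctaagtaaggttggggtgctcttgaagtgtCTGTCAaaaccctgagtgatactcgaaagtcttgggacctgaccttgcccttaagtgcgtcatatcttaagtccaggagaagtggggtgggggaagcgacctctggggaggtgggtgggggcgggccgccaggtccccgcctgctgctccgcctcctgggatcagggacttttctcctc

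Prep1deltaSM mouse 4 was the lowest of the 8 muscles for 16 of 33 collagens (48.5%, against 14.9% of all genes) and Prep1deltaSM mouse 2 for 6 (18.2%, against 11.0% of all genes). Prep1deltaSM mouse 3 was the lowest for 0 (10.6% of all genes) and the highest for 7 (21.2%, against 5.18% of all genes). Prep1f/+ mouse 4 was the highest for 8 (24.2%, against 15.9% of all genes) and Prep1deltaSM mouse 1 for 6 (18.2%, against 7.09%). The mean of the 33 collagens, each centred on its own mean over the 8 arrays, was 0.15, -0.32, 0.27 and -0.45 in Prep1deltaSM mice 1 to 4, against -0.05, 0.11, 0.01 and 0.28 in Prep1f/+ mice 1 to 4. Prep1deltaSM mice 1 and 3 thus lay within the Prep1f/+ range, and mice 2 and 4 below it. These 2 mice sat on slides 2 and 3, the low slides of type I collagen.

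Some lists of markers of other cells were low in the same mice. Of the fibroblast markers, 13 of 14 were tested (Tcf21 was not well above background on any array), 12 of them were lower with a median of -0.54, and their centred mean was -0.02, -0.39, 0.09 and -0.60 in Prep1deltaSM mice, against -0.08, 0.26, 0.47 and 0.27 in Prep1f/+ mice. Their summed signal, in units of the 75th percentile, was 144 to 223 in Prep1deltaSM and 197 to 300.3 in Prep1f/+. Of 9 tendon markers (such as Tnmd, Fmod and Comp) 9 were lower, with a median of -0.61 and a summed signal of 37.5 to 58.3 in Prep1deltaSM and 46.8 to 79.7 in Prep1f/+, and their mean was -0.74 and -1.08 in Prep1deltaSM mice 2 and 4. Mice 2 and 4 were thus the lowest in collagen, fibroblast and tendon genes alike.

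Of 15 macrophage and leukocyte markers tested of 16, all 15 were lower, with a median of -0.46 and a summed signal of 14.9 to 24.8 in Prep1deltaSM and 20.3 to 43.0 in Prep1f/+. For adipocytes 7 of 9 tested were lower (Lep was not well above background on any array), with a median of -0.87 and a summed signal of 265 to 624 in Prep1deltaSM and 511 to 843 in Prep1f/+. For satellite cells 6 of 8 tested were lower (Myf5 was not well above background on any array), with a median of -0.11 and a summed signal of 11.4 to 12.8 in Prep1deltaSM and 14.4 to 17.4 in Prep1f/+. At an unadjusted p under 0.05 by limma, 7 of 13 fibroblast, 4 of 15 macrophage and leukocyte, 2 of 9 tendon and 2 of 8 satellite cell markers were lower. Of 9 adipocyte markers 0 were, against 10.3% of all genes. Other lists did not lie low: 5 of 9 smooth muscle and pericyte markers were lower with a median of -0.04. At that threshold 3 of the 9 were higher (5.54% of all genes), and of 12 endothelial markers 1 was lower and 1 higher. Schwann cell markers had 3 of 8 lower and a median of 0.01. Endothelial markers had a median of -0.05, and 12 of 12 fibre genes a median of 0.01 with centred means between -0.13 and 0.10. None of these lists holds a collagen, and the part of these cells in the collagen values was not tested.

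**Figure D4:**
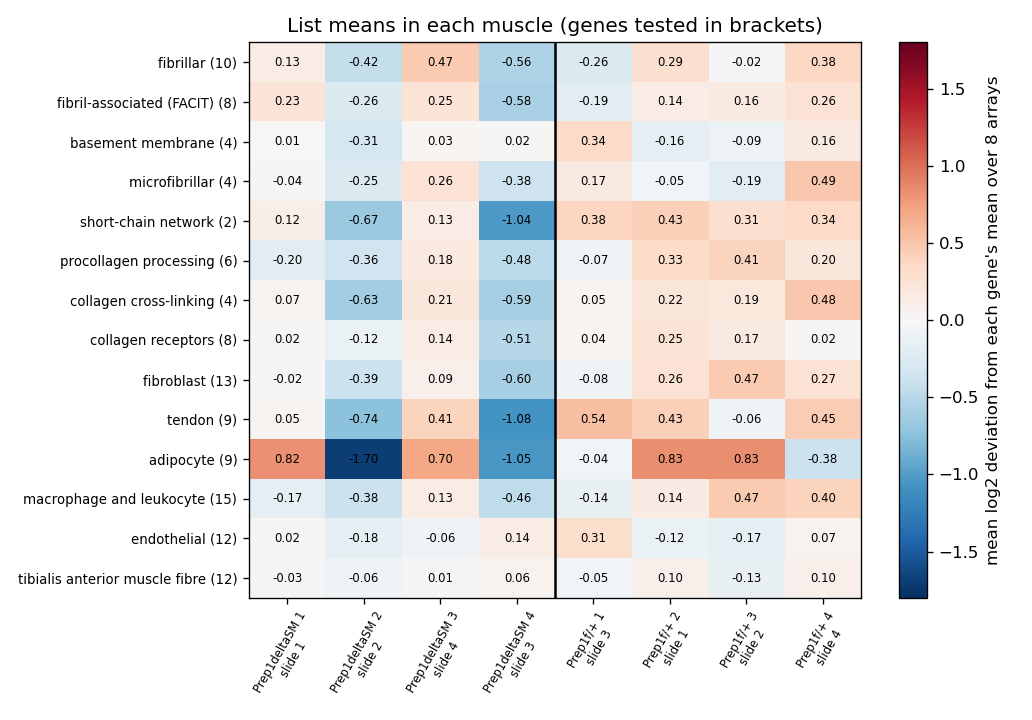
Mean log2 deviation from each gene's mean over the 8 arrays, for collagen classes, collagen pathway lists and cell type markers (rows) in each muscle (columns, Prep1deltaSM left of the line and Prep1f/+ right). Prep1deltaSM 2 and 4 are low in fibrillar and FACIT collagens, cross-linking genes, fibroblast, tendon and adipocyte markers, while fibre genes stay within 0.13 of their mean.

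The genes that build, cut and bind collagen were read from fixed lists, in which 0 genes passed an adjusted p of 0.05. The enzymes that hydroxylate and fold the chains in the endoplasmic reticulum had 7 of 12 tested genes lower, with a median of -0.14. Ppib, a prolyl isomerase of the helix, had 3.20, 3.03, 3.27 and 2.96 in Prep1deltaSM mice, against 3.45, 3.41, 3.45 and 3.56 in Prep1f/+ mice. These groups did not overlap, and the difference of -0.35 had an unadjusted p of 0.00516 and an adjusted p of 0.179 by limma. In this list 2 of 12 genes lay lower without overlap (Ppib and Plod3), against 6.74% of all genes. Plod1, a lysyl hydroxylase, differed by 0.25. Among chaperones and secretion factors 7 of 9 were lower, with a median of -0.10. Sec24d, a COPII coat subunit, differed by -0.38 and Fkbp9, an isomerase of the endoplasmic reticulum, by -0.18. Fkbp9 was the 1 of the 9 whose groups did not overlap.

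After secretion, procollagen is trimmed and cross-linked. All 6 procollagen processing genes tested lay lower, with a median of -0.40, among them the N-proteinase Adamts14 (-0.36; -1.91, -1.68, -1.73 and -1.45 in Prep1deltaSM mice, against -1.34, -1.29, -1.32 and -1.37 in Prep1f/+ mice, with no overlap). Adamts14 was the 1 of these 6 whose groups did not overlap, where 6.74% of all genes lay lower without overlap. The proteinase enhancer Pcolce2 differed by -0.88. All 4 lysyl oxidase genes tested, which make the cross-links, lay lower, with a median of -0.45, and Loxl1 and Loxl3 differed by -0.51 and -0.58 (-0.34 and -0.13 with normexp and quantile normalization). Loxl3 also differed by -0.34 without Prep1deltaSM mouse 2. Among all genes, 62.7% lay below 0.

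Of the proteases that degrade collagen and their inhibitors 8 of 11 lay lower, with a median of -0.33. Ctsk, a lysosomal collagenase, differed by -0.66 and Fap, a fibroblast surface protease, by -0.39. Of the collagen receptors 7 of 8 lay lower, with a median of -0.18. Itga11, the fibroblast integrin subunit for fibrillar collagen, differed by -0.91 and Cspg4, a pericyte proteoglycan that binds type VI, by -0.44. Itga1, the 1 higher receptor, differed by 0.32 and was higher on all 4 slides. Laminins, nidogens and other basement membrane partners had 6 of 11 lower and a median of -0.01, with -0.35 for Lamc1 and -0.36 for Nid1, which links laminin to type IV. In the TGF-beta list, whose ligands are known inducers of collagen genes in fibroblasts, 12 of 15 lay lower, with a median of -0.16. The coreceptor Tgfbr3 and the latency protein Ltbp4 differed by -0.35 and -0.33, but Tgfbr3 by only -0.04 with normexp and quantile normalization. Lower without overlap were 1 of the 11 basement membrane partners (Lamc1) and 2 of the 15 TGF-beta genes (Ltbp4 and Ltbp3). The proteases and receptors held 0 such genes, and 6.74% of all genes were so.

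The 10 collagens that were not tested were Col10a1, Col17a1, Col6a5, Col6a6 and Col9a3 (well above background on 0 arrays), Col4a5, Col25a1 and Col28a1 (on 1), Col4a3 (on 2) and Col27a1 (on 3). Their values give only a bound at background, and no fold was computed.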

How the data were processed

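Total RNA of 8 tibialis anterior muscles, 1 mouse each, was measured on Agilent single-colour (Cy3) arrays. The deposited spot intensity used here (gProcessedSignal) is background-subtracted and detrended but not normalized between arrays; per the file headers it came from Feature Extraction 10.5.1.1, protocol GE1_107_Sep09. The submitters' processing notes name version 9.1, and the version that made the values was not settled. The 75th percentile of signal was 139 to 197 per array. The authors also deposited a table of 32812 intensity values per array, with column medians of 12.7 to 13.2. It was linear and quantile-normalized when set against scanner values, its direction is that of the signal, and its collapsing over probes stays unknown.

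Log2 intensity was taken minus each array's 75th percentile. Non-uniform spots (0 to 11 per array) were set missing, 0 spots were saturated, and spots of a probe were averaged. A probe was kept where it was well above background on 4 or more arrays (24487 of 41174), and each gene was read from its brightest kept probe. Prep1deltaSM was compared with Prep1f/+ in limma 3.58.1 (lmFit and eBayes, R 4.3.3), with Benjamini-Hochberg adjustment over 16015 genes and no block. The number of arrays limits the precision. Shares of the sum of squares come from a fit of slide and genotype over 16008 genes with all 8 values. Scripts were tested on simulated data.

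The members, classes and lists were chosen with earlier results of these data known. Named were Pknox1, all collagens and the genes of smallest p in each pathway list. All 33 symbols tested are in the RefSeq gene table. The alternatives changed the normalization, the filter, the probe rule or the variance model, used the authors' values, blocked on slide, weighted arrays or left mice out. Scanning took place on 1 day.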

Additional observations from a re-analysis of the deposited data

Results flagged for a closer look

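In 3 of 66 groups of 4 mice, 1 mouse lay far from the other 3 with a ratio of gap to range above Dixon's 95% critical value. About 3.3 such groups are given by chance. Col5a1, a chain of type V fibrils, was lowest in Prep1f/+ mouse 1 (ratio 0.877), with 1.28 against 1.86 to 1.94 in the other Prep1f/+ mice. Col24a1, a minor fibrillar chain, was also lowest in Prep1f/+ mouse 1 (0.870), with -2.67 against -1.55 to -1.39. Col6a4, a chain of type VI, was highest in Prep1deltaSM mouse 4 (0.869), with -3.55 against -3.77 to -3.74. Without Prep1f/+ mouse 1 the difference (Prep1deltaSM minus Prep1f/+) was -0.44 for Col5a1 and -0.0070 for Col24a1. Without Prep1deltaSM mouse 4 it was -0.0012 for Col6a4.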

How the results depend on the processing

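Over 22 alternatives, 0 collagens passed an adjusted p of 0.05, and the smallest such p was 0.0871, for Col7a1. Col7a1 was higher in all of them, by 0.35 to 0.58. Of 670 recomputed collagen differences, 636 kept their sign, and 21 of 33 collagens never changed it. Blocking on slide and the trended robust variance cannot change a difference. With other filters, or with non-uniform spots kept, 0 collagens moved by over 1.5 times. The signs kept under those settings are therefore no support. The 16 pathway genes recomputed kept theirs in 333 of 333, but they were picked for the smallest p in these same data, which favours a steady sign. With normexp 11 of them moved by over 1.5 times (Tgfbr3 to -0.04), as did 23 of 33 collagens. Without Prep1deltaSM mouse 4, 22 of 33 collagens moved so far. The cause of the changes below was not tested. Sign changed for Col4a2 with quantile normalization (0.039), normexp (0.0058), the mean of a gene's probes (0.13), array weights (0.12) and without Prep1f/+ mice 1 and 4 (0.20). Array weights gave 0.023 for Col6a3 and 0.092 for Col18a1, normexp -0.0016 for Col6a4 and 0.019 for Col23a1, and the mean of probes 0.17 for Col23a1. Without Prep1f/+ mice 1 and 4, Col6a2 was 0.046, Col18a1 0.069, Col19a1 -0.27 and Col24a1 -0.058. Leaving out 1 mouse gave -0.23 to 0.31 for Col1a1, -0.10 to 0.11 for Col4a2, -0.32 to 0.0034 for Col6a3, -0.061 to 0.15 for Col6a4, -0.45 to 0.016 for Col11a1, -0.26 to 0.046 for Col13a1, -0.24 to 0.059 for Col18a1, -0.13 to 0.66 for Col19a1, -0.15 to 0.12 for Col20a1, -0.21 to 0.062 for Col23a1 and -0.0070 to 0.42 for Col24a1.

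The collagen median was -0.10 without Prep1deltaSM mouse 4, -0.12 without mouse 2, -0.32 without mouse 3 and -0.15 without Prep1f/+ mouse 4. It was -0.13 with normexp, -0.13 with array weights, -0.14 with the mean of probes and -0.11 with every probe. Collagens whose groups did not overlap numbered 1 (Col7a1), but 2 with quantile normalization, normexp, median centring or the authors' values (Col8a2 added), 2 with the mean of probes (Col2a1 added), 4 without Prep1f/+ mice 1 and 4, and 1 to 4 without 1 mouse. Groups of fewer mice separate more often by chance alone. The share over all genes is not given for these settings, so the counts show no change in the collagens. Pknox1 was -0.89 with normexp, -1.76 with slide as a block (adjusted p = 0.062), -1.78 without Prep1f/+ mice 1 and 4 (adjusted p = 0.0605) and -1.84 to -1.68 without 1 mouse (adjusted p up to 0.0738). Genes past the threshold numbered 1, but 26 with normexp, 20 with trended robust variance, 25 with array weights, 0 with slide as a block, 0 without Prep1f/+ mice 1 and 4 and 0 to 5 without 1 mouse. No paired analysis by replicate number was possible because the labels pair no mice. Of 32736 matched rows of the authors' table, 26243 lay within 0.1 log2 of the quantile-normalized values on every array, after centring each array. Only these rows were used, which left 11 collagens. This setting thus nearly repeats quantile normalization by construction and is no independent check. Signal at background leaves 10 collagens with only a bound.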
